A study of Mus musculus with 12 samples.

Results

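The inducible cytosolic heat shock genes and the small heat shock genes of cardiac muscle were examined in the ventricular wall of mice that lack Sdhaf4 in muscle. The group was defined by gene name as Hspa1a, Hspa1b, Hspb1, Hspb6, Hspb7, Cryab, Bag3, Dnajb1, Hsph1 and Hsp90aa1, and 8 of these 10 genes had a row under their name among the 43686 rows of the expression table. Hspa1a and Hsp90aa1 had no row under their name. The data were RNA-seq read counts per gene from 12 hearts, 1 library for each mouse. The 6 wild-type (WT) hearts came from Sdhaf4 fl/fl littermates without Cre, and the 6 knockout (KO) hearts came from Sdhaf4 fl/fl mice that carried Ckmm-Cre, in which the muscle creatine kinase promoter drives recombination in cardiac and skeletal muscle. The labels call the KO genotype Sdhaf4-/-, give the strain of both groups as C57BL/6, and give the age as postnatal month 2, whereas the text of the study gives 6 weeks. SDHAF4 is an assembly factor of mitochondrial complex II, and the comparison asked how the heart's transcriptome differs without it. The wall was sequenced whole, so fibroblasts, endothelial cells and other cells that keep Sdhaf4 contributed RNA, and fewer cells of a type and less RNA per cell cannot be told apart.

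Molecular chaperones bind proteins that are unfolded or partly folded and keep them from aggregating. HSP70 proteins (Hspa1a, Hspa1b) bind and release such clients in cycles driven by ATP, J-domain proteins such as Dnajb1 deliver clients to HSP70, and nucleotide exchange factors such as Bag3 and the HSP110 protein Hsph1 reset the cycle. Small heat shock proteins (Hspb1, Hspb6, Hspb7 and Cryab, also called HSPB5) hold clients without using ATP and are abundant in heart muscle, where several of them associate with filaments and Z-discs. In the classical heat shock response the factor HSF1 binds repeated GAA units, named heat shock elements, before the start sites of inducible chaperone genes.

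The stretches before the start sites of 6 of these genes are printed below, because the genes with a copy of the GAA repeat and the genes whose RNA differed between the genotypes coincided only in part. RefSeq promoter windows (GRCm38.p6) were matched by gene symbol for 8 of the 10 genes, with 11 windows of 300 bases in all, and Cryab and Hsp90aa1 had no entry. The motif searched was a pair of facing units, GAANNTTC or TTCNNGAA, each of which reads the same on both strands, and a stricter form of 3 alternating units, which contains the pair. The pair occurred in at least 1 window of 6 genes (Hspa1a, Hspa1b, Hspb1, Hspb6, Bag3 and Hsph1) and in no window of Hspb7 or Dnajb1. For comparison, 15.1% of all 32851 windows of the same length held the pair and 0.6% held the stricter form. By gene, 4587 of 27025 had the pair in at least 1 window, and 179 had the stricter form. Each line gives the 150 bases that end just before the start site, 5′ to 3′ on the strand of the gene, and capitals mark the paired units.
Hspa1a, chr17:34972157-34972306, minus strand: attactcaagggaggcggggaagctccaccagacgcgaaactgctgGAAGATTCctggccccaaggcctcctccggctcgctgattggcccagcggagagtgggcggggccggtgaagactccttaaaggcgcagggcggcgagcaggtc
Hspa1b, chr17:34959239-34959388, minus strand: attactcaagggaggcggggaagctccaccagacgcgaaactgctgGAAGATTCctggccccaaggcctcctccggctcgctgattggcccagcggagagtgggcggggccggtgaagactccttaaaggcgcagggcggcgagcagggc
Hspb1, chr5:135887769-135887918, plus strand: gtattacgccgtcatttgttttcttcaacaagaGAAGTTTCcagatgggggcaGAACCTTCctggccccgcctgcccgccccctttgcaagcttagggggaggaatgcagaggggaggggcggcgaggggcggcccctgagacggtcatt
Hspb6, the second of 2 start sites, chr7:30553151-30553300, plus strand: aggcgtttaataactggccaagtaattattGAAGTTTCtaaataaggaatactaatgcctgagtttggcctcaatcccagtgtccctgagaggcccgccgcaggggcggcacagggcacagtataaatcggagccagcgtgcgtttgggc
Hspb7, chr4:141420629-141420778, plus strand: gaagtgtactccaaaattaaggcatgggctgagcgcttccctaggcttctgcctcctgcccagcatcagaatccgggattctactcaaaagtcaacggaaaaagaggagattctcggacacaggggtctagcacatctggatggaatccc
Hsph1, the first of 2 start sites, chr5:149636337-149636486, minus strand: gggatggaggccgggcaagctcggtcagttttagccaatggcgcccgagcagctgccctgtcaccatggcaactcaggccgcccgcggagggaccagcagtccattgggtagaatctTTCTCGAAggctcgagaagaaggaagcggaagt

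The Hspa1a and Hspa1b stretches were identical at 149 of 150 bases, with the pair beginning 104 bases before each start. In Hspb1 there were 2 pairs, which began 117 and 97 bases before the start. Hspb6 had no pair at its first start site and 1 at the second, 120 bases before it. Hsph1 was the only one of these genes with the stricter form, which began 36 bases after its first start site and so lies outside the stretch printed. In Bag3 the pair began 42 bases after the start. A match to these letters describes the sequence and does not show binding. Only exact matches within the windows were searched, so a missing match does not show that an element is missing.

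The libraries held 23747014 to 27159228 counted reads in WT hearts and 26542930 to 31393393 in KO hearts. Sdhaf4 itself was at 14.3 to 30.3 CPM (read counts scaled to library size by the trimmed mean of M-values, TMM) in WT hearts and at 2.25 to 2.73 CPM in KO hearts, so each library matched its label, and the lowest WT value was that of replicate 6. All 9 tested cardiomyocyte markers were expressed, with a summed level of 47595 to 53287 CPM in WT hearts and 42959 to 59728 CPM in KO hearts. Of these 9 markers 4 were lower in KO hearts (Tnni3, Ryr2, Myl2 and Myl3) and 2 were higher (Mybpc3 and Tnnc1). Of 4 atrial genes, Myl7 and Sln were too low to be tested, and both that were tested were higher in KO hearts. Nppa had a log2 fold change of 5.65, and Myl4 rose from a mean of 2.12 to 3.49 CPM (log2 fold change 0.72, adjusted p = 0.00515). The study also measured Nppa, as Anp, among hypertrophy-associated genes of the left ventricle. Summed over 8 fibroblast markers the level was 1509 to 1754 CPM in WT hearts and 2357 to 4346 CPM in KO hearts, without overlap, and 7 of the 8 were higher in KO hearts. Immediate early genes, which respond within minutes to handling of a mouse, were lower in 7 of 12 cases and higher in 2, with summed levels of 354 to 564 CPM in WT hearts and 274 to 384 CPM in KO hearts. The part of these differences in the chaperone results was not tested. Of the 17155 rows tested, 51.1% passed an adjusted p of 0.05, with 25.6% higher and 25.5% lower in KO hearts, and counts of chaperone genes are to be read against these shares.

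Among the 8 chaperone genes with a row, Hspb7 and Hspb6 were higher in KO hearts, Hsph1 was lower, and Cryab, Hspb1, Bag3, Dnajb1 and Hspa1b did not pass the test (edgeR quasi-likelihood test, Benjamini-Hochberg adjustment over all rows). Their median log2 fold change was 0.058, beside 0.0022 over all rows tested. The study's stricter thresholds, a log2 fold change beyond 1 and an adjusted p of 0.005, were passed by 0 of the 8 genes and by 10.2% of all rows. With DESeq2 and limma-voom the number of these genes was also 0. At an unadjusted p of 0.05 with no limit on the fold change, 3 of the 8 passed. The share of all rows at that unadjusted p was not computed, but 51.1% passed even the adjusted p of 0.05. Every KO heart lay above every WT heart for 2 of the 8 genes, Hspb7 and Hspb6, beside 14.9% of all rows.

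**Figure D1:**
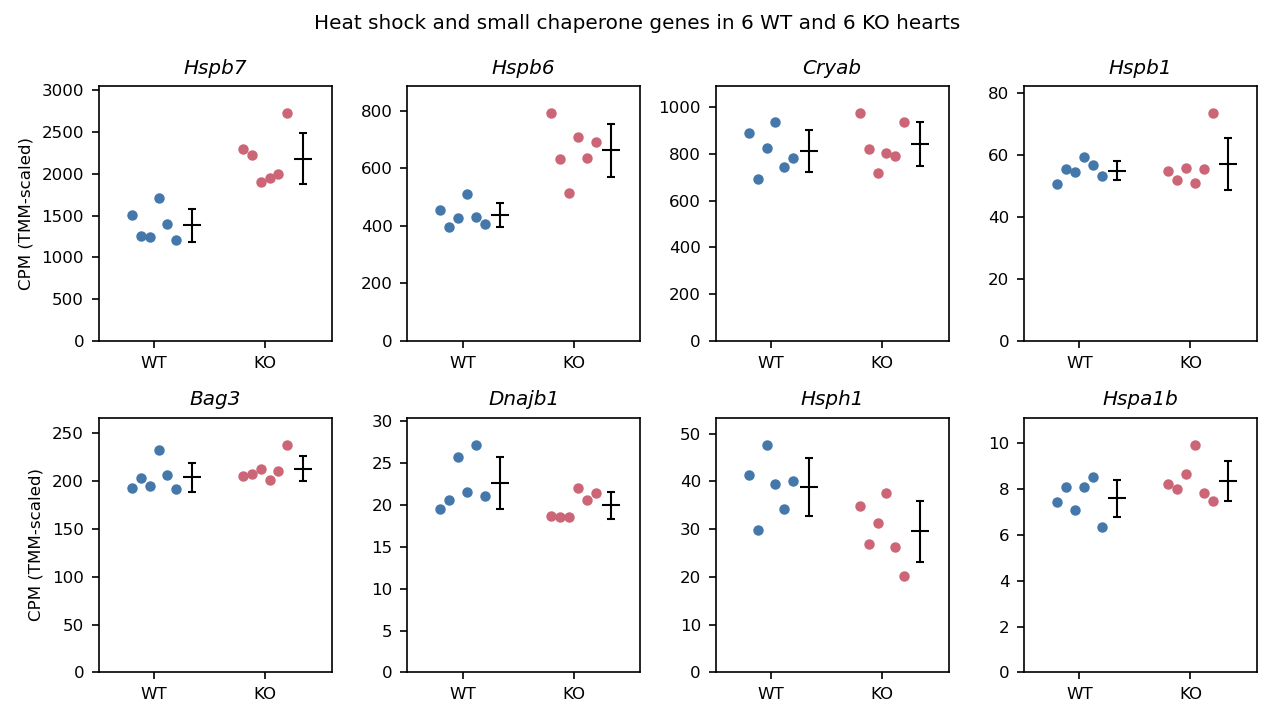
Level of each chaperone gene in each heart, in TMM-scaled CPM on linear axes that start at 0. Points are single hearts in replicate order (blue WT, red KO, 6 each), and the bars beside them show the mean and SD. Hspb7 and Hspb6 have KO points that all lie above the WT points, and the other 6 genes have points that overlap, with KO replicate 6 high for Hspb1 at 73.4 CPM and low for Hsph1 at 20.1 CPM.

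Of the 4 small heat shock genes in the group, Hspb7 and Hspb6 were higher in KO hearts, and Cryab and Hspb1 did not pass the test. Hspb7, known as the cardiovascular small heat shock protein which binds actin, was at 1206 CPM in the lowest WT heart, a median of 1322 CPM and 1706 CPM in the highest. In KO hearts it was at 1900, 2106 and 2723 CPM, so the lowest KO heart was above the highest WT heart. The log2 fold change was 0.66 (standard error 0.10, 95% interval 0.44 to 0.87, adjusted p = 4.14e-05), a 1.58-fold higher level. The KO hearts with the lowest summed levels of fibroblast markers, replicates 6 (2357 CPM) and 3 (2458 CPM), had the highest and the lowest Hspb7 level among KO hearts. KO replicate 4, with the highest sum (4346 CPM), had an Hspb7 level of 1950 CPM. A relation between these sums and Hspb7 was not tested. The row lies at chr4:149507528-149512046 on the plus strand of the C57BL/6NJ assembly and overlaps no other row.

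Hspb6, also called HSP20, is a small heat shock protein that cyclic nucleotide signalling phosphorylates in heart and smooth muscle. Its level in WT hearts was 396 CPM at the lowest, 428 CPM at the median and 510 CPM at the highest. In KO hearts the lowest value was 513 CPM, the median 663 CPM and the highest 792 CPM. The groups did not overlap, although the lowest KO heart (replicate 3) lay close to the highest WT heart (replicate 4). The difference was 0.60 on the log2 scale (standard error 0.088, 95% interval 0.41 to 0.79, adjusted p = 2.89e-05), or 1.51-fold. The Hspb6 row (chr7:30515060-30518328, plus strand) shares 119 bases with Proser3 and 3 with Lin37, both on the minus strand. These neighbours were at mean levels of 3.23 and 4.96 CPM in WT hearts and were not higher in KO hearts (log2 fold change -1.27 for Proser3 and -0.18 for Lin37), so they were small beside Hspb6. It also contains a row of 77 bases that was too low to test.

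Cryab encodes alpha B-crystallin, the small heat shock protein that binds desmin and titin. It was at 693, 805 and 935 CPM in WT hearts (lowest, median and highest) and at 720, 815 and 974 CPM in KO hearts, and the groups overlapped over nearly their whole range. The log2 fold change was 0.05 (95% interval -0.12 to 0.23, adjusted p = 0.629). An increase as large as that of Hspb6 or Hspb7 therefore lies outside the interval for Cryab, whereas a change of up to 1.17-fold does not.

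Hspb1, or HSP25 in the mouse, binds actin and is a classical target of heat shock. The WT hearts spanned 50.6 to 59.3 CPM with a median of 54.8 CPM, and the KO hearts spanned 50.9 to 73.4 CPM with a median of 55.1 CPM. In KO hearts 5 of the 6 values were between 50.9 and 55.7 CPM, and replicate 6 stood alone at 73.4 CPM. The fold change on the log2 scale was 0.05 (95% interval -0.11 to 0.22, adjusted p = 0.58). The span of Hspb1 (chr5:145720353-145725123, plus strand) contains an unnamed row on the same strand, at a mean of 56.7 CPM in WT hearts and 59.6 CPM in KO hearts, so the reads of the locus may be divided between both rows. That row too did not pass the test (log2 fold change 0.07, adjusted p = 0.516).

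Of the small heat shock genes outside the group, 4 of the 5 listed were tested and 3 were higher in KO hearts. Their median on the log2 scale was 0.37. Hspb3, a muscle small heat shock gene, ranged from 2.23 to 3.51 CPM in WT hearts and from 7.85 to 9.73 CPM in KO hearts, a 3.31-fold difference (log2 1.73, standard error 0.12, adjusted p = 5.72e-09). Hspb2, which forms complexes with Hspb3 in muscle, was at 50.3 to 56.7 CPM in WT hearts and at 64.0 to 101 CPM in KO hearts (log2 fold change 0.51, adjusted p = 0.000111). In both genes all KO hearts were above all WT hearts. Hspb8, the partner of Bag3, was 1.17-fold higher (adjusted p = 0.00549) with overlapping groups, and Hspb11 had a log2 fold change of -0.17 (95% interval -0.50 to 0.17, adjusted p = 0.4). Hspb8 and Hspb11 were added to the named genes after their values were seen, to complete the family.

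**Figure D2:**
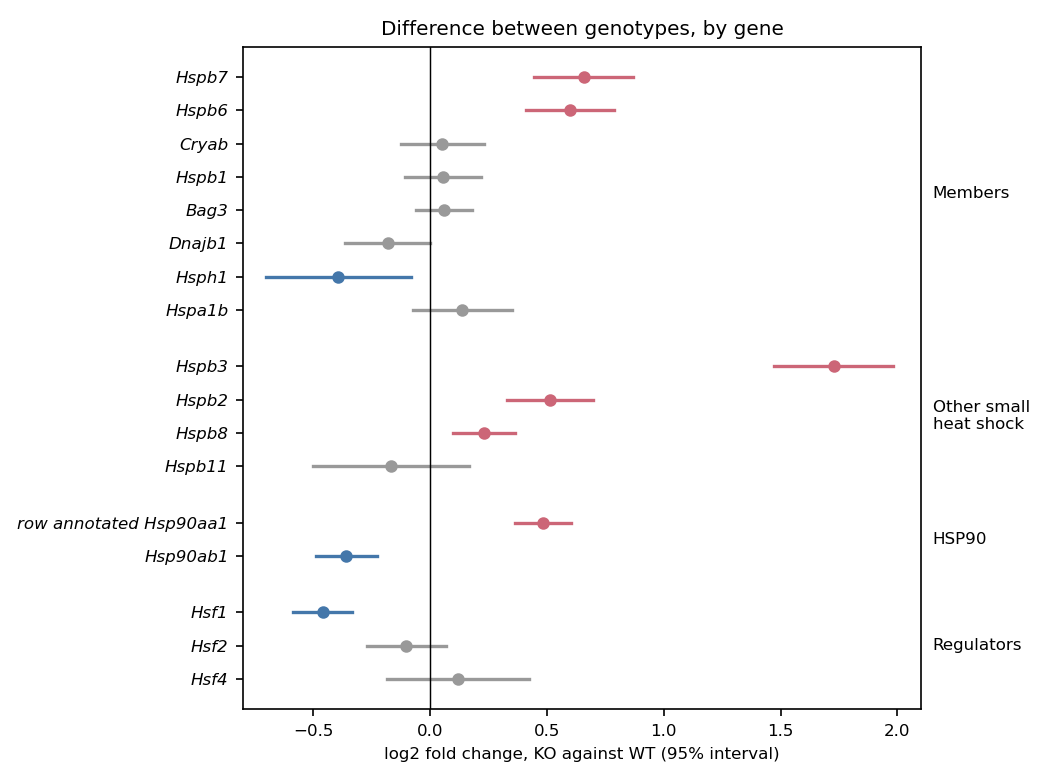
Log2 fold change between KO and WT hearts (horizontal axis, linear) with 95% intervals from the edgeR fit, for the chaperone genes, the other small heat shock genes, the HSP90 pair and the heat shock factors. Red and blue mark genes that passed an adjusted p of 0.05 as higher or lower in KO hearts, and grey marks those that did not. Hspb3 lies farthest to the right at 1.73, and the HSP90 pair lies on opposite sides of 0.

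The levels of different genes were compared per length, in the authors' FPKM, in which the fragments of a gene are divided by its length and by the depth of the library. In WT hearts the order of the mean FPKM was Cryab (684), Hspb7 (501), Hspb6 (350), Bag3 (79.3), Hspb1 (59.8), Hsph1 (19.9), Dnajb1 (9.96) and Hspa1b (2.70). Each gene was above the next in 6 of 6 WT hearts, and of the neighbours in this order the ranges of Cryab and Hspb7 alone overlapped between hearts. In KO hearts the order changed at the top, with Hspb7 at 791 FPKM, Cryab at 711 FPKM and Hspb6 at 532 FPKM, and was the same below them. Hspb7 was above Cryab in 6 of 6 KO hearts, the reverse of the WT hearts, with ranges of 664 to 963 FPKM and 584 to 835 FPKM that overlapped between hearts, and the range of Hspb6 (396 to 644 FPKM) overlapped that of Cryab. In KO replicate 1 the gap was narrowest, at 847 FPKM for Hspb7 and 835 FPKM for Cryab. The FPKM of Hspb6 and Hsph1 implied shorter gene lengths (1248 and 1947 bases) than the lengths listed for their rows (1980 and 4764 bases). Per kilobase of the listed length, Hspb6 was at 221 CPM in WT hearts and kept its place, and Hsph1 was at 8.14 CPM, below Dnajb1 at 9.99 CPM. The place of Hspa1b also depends on how reads that match both Hspa1a and Hspa1b were counted, which is not given.

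**Figure D3:**
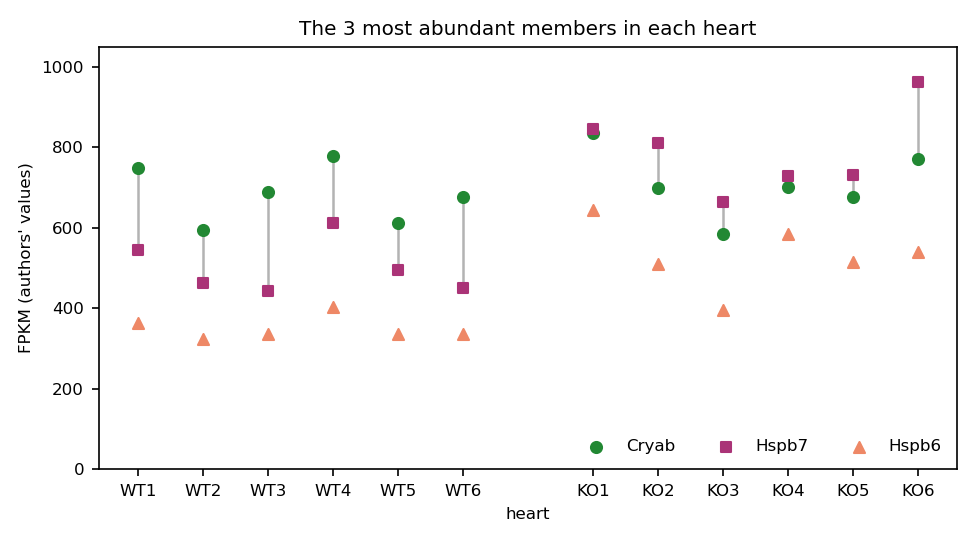
FPKM of Cryab (green circles), Hspb7 (purple squares) and Hspb6 (orange triangles) in each of the 12 hearts, on a linear axis that starts at 0. Grey lines join Cryab and Hspb7 of the same heart. Cryab is above Hspb7 in the 6 WT hearts, Hspb7 is above Cryab in the 6 KO hearts, and Hspb6 is the lowest of the 3 genes in all hearts.

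Ratios of counts within a library do not depend on how libraries are scaled, and were used to compare Cryab with its relatives directly. Cryab and Hspb2 are neighbours that are transcribed in opposite directions from a shared region, with 403 bases between their rows (chr9:51033956-51035238, minus strand, and chr9:51035642-51039517, plus strand). The ratio of Cryab to Hspb2 counts was 13.0 to 18.6 in WT hearts and 9.30 to 12.8 in KO hearts. It was thus lower in every KO heart, by a mean of -0.45 on the log2 scale (p = 0.00216 in a two-sided exact permutation test, which is the smallest that 6 against 6 hearts allow, and the same after Benjamini-Hochberg adjustment over 4 ratios). The ratio of Cryab to Hspb6 was 1.73 to 1.95 in WT hearts and 1.14 to 1.40 in KO hearts, and that of Cryab to Hspb7 was 0.533 to 0.668 and 0.344 to 0.424. These last ratios were chosen after the levels of the 3 genes were seen. They were among the 4 ratios of the adjustment, but are given as a description, and their p-values are not used as support. Both were lower in all KO hearts than in any WT heart, with mean log2 differences of -0.54 and -0.60.

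The genes of the HSP70 cycle did not move as a group. Bag3, which links HSP70 to the small heat shock proteins and is needed to maintain the Z-disc, was at 192 to 233 CPM in WT hearts (median 199 CPM) and at 201 to 238 CPM in KO hearts (median 209 CPM). The groups overlapped, and the highest value of each group stood apart from the rest of it. The log2 fold change was 0.06 (95% interval -0.06 to 0.18, adjusted p = 0.391). A row of 612 bases inside Bag3 (chr7:138144384-138171367, plus strand) was at a mean of 1.78 CPM in WT hearts.

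Dnajb1, the J-domain protein HSP40 that heat shock induces together with HSP70, ranged from 19.5 to 27.2 CPM in WT hearts with a median of 21.3 CPM. In KO hearts it ranged from 18.5 to 22.0 CPM with a median of 19.6 CPM. The groups overlapped, and the log2 fold change of -0.18 had a 95% interval of -0.36 to 0.0016 (adjusted p = 0.0912).

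Hsph1, also called HSP105, exchanges the nucleotide of HSP70 and takes part in dissolving aggregates. It was at 29.9, 39.7 and 47.7 CPM in WT hearts (lowest, median and highest) and at 20.1, 29.1 and 37.7 CPM in KO hearts. The groups overlapped, since the lowest WT heart was below 3 of the 6 KO hearts. Hsph1 fell by 23.8% (log2 fold change -0.39, standard error 0.14, 95% interval -0.70 to -0.08, adjusted p = 0.0359). Over 24 other settings the call held in 15. It was lost when any of 7 of the 12 libraries was left out (WT replicates 1, 3, 4 or 6, or KO replicates 2, 3 or 5), with the log2 fold change between -0.31 and -0.47 over the 12 such fits.

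Hspa1b had the lowest level of the 8 genes with a row. It encodes inducible HSP70 and was at 6.34 to 8.54 CPM in WT hearts (median 7.76 CPM) and 7.50 to 9.93 CPM in KO hearts (median 8.12 CPM). These ranges overlapped, with a log2 fold change of 0.14 (95% interval -0.07 to 0.35, adjusted p = 0.269), and so a difference of more than 1.27-fold upwards lay outside the interval. Hspa1a and Hspa1b are near-identical copies: of the 100-base windows of the GENCODE Hspa1b transcript, 49.9% also occur in Hspa1a. The Hspa1b row spans 16399 bases (chr17:36417181-36433579, minus strand) but lists a length of 2803 bases. On GRCm38.p6 the start sites of Hspa1a and Hspa1b lie on the same strand of chromosome 17. Whether the span of the row takes in both genes was not tested. How reads that match both copies were counted is not given in the sources used here, and the value is therefore uncertain as a measure of Hspa1b alone. An unannotated row that the table describes as a partial 68 kDa heat shock protein was at a mean of 1.01 CPM in WT hearts and 1.04 CPM in KO hearts. Hspa8, the constitutive HSP70, also had no row under its name, and with Hspa1a missing as well no ratio of inducible to constitutive HSP70 was formed. An unannotated locus of 574 bases whose annotation names Hspa8, which overlaps another unannotated locus and was chosen after the table was seen, was at a mean of 66.9 CPM in WT hearts and 78.1 CPM in KO hearts (log2 fold change 0.22, adjusted p = 0.00764).

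Among the 6 other HSP70 and HSP110 genes tested, 2 were higher and 0 lower in KO hearts by the edgeR test, and 1, Hspa12b, named after its value was seen, was lower at an unadjusted p of 0.05. Hspa4, an HSP110-type exchange factor like Hsph1, was at 153 to 172 CPM in WT hearts and 205 to 225 CPM in KO hearts, 1.31-fold higher without overlap (adjusted p = 3.26e-06). Hspa1l, a neighbour of the Hspa1 pair that is expressed mainly in testis, was at 5.85 to 8.98 CPM in WT hearts and 9.16 to 15.5 CPM in KO hearts (log2 fold change 0.65, adjusted p = 0.00052). A second row whose annotation names Hspa1l overlaps it on the opposite strand and was lower in KO hearts, at a mean of 4.01 CPM in WT hearts and 2.96 CPM in KO hearts (log2 fold change -0.44, adjusted p = 0.0263). Without a stated strand setting the reads of these rows cannot be told apart where they overlap, so the direction for Hspa1l is uncertain. Of 15 other J-domain genes, 6 were higher and 5 lower. Dnajc5, which encodes cysteine string protein, had a log2 fold change of 0.45 (adjusted p = 2.26e-07), and Dnajb2 one of -0.45 (adjusted p = 1.4e-06). Of 9 BAG and other HSP70 factors, 3 were higher and 1 lower. Bag1, an exchange factor like Bag3, was lower (log2 fold change -0.25, adjusted p = 0.00171), and Bag5 was higher (0.30, adjusted p = 0.00222).

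For Hsp90aa1, the inducible cytosolic HSP90, the table gave no gene name, but its pathway annotation named Hsp90aa1 on 3 rows. Of the 3, the row whose protein domain annotation names HSP90 was taken to stand for the gene, after the table had been seen. It lies at chr12:116459485-116469997 on the minus strand and had the highest level of the 3. It was at 51.3 to 56.8 CPM in WT hearts (median 52.3 CPM) and at 65.2 to 80.3 CPM in KO hearts (median 74.6 CPM). The KO hearts were all above the WT hearts, and the difference on the log2 scale was 0.48 (standard error 0.056, adjusted p = 2.03e-06). The other rows had log2 fold changes of 0.36 (chr19:9226139-9229639, adjusted p = 0.00233) and 0.34 (chr12:116454580-116456471, minus strand, adjusted p = 2.43e-05). The former is on another chromosome and the latter lies near the chosen row on the same strand, so they are not taken as separate support. That each row carries reads of Hsp90aa1 alone was not tested.

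Hsp90ab1, the constitutive HSP90, moved the other way. It was at 1244 to 1554 CPM in WT hearts and at 1034 to 1137 CPM in KO hearts without overlap (log2 fold change -0.36, standard error 0.061, adjusted p = 0.000109). The count of the row annotated Hsp90aa1 was 0.0337 to 0.0415 of the Hsp90ab1 count in WT hearts and 0.0598 to 0.0748 of it in KO hearts. The ratio was higher in every KO heart, by 0.83 on the log2 scale or 1.78-fold. This separation follows from both rows, which each separated the groups, in opposite directions. Its p (two-sided exact permutation p = 0.00216, the smallest possible) is therefore not used as support. With the 3 rows annotated Hsp90aa1 added together, the difference was 0.77 on the log2 scale.

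**Figure D4:**
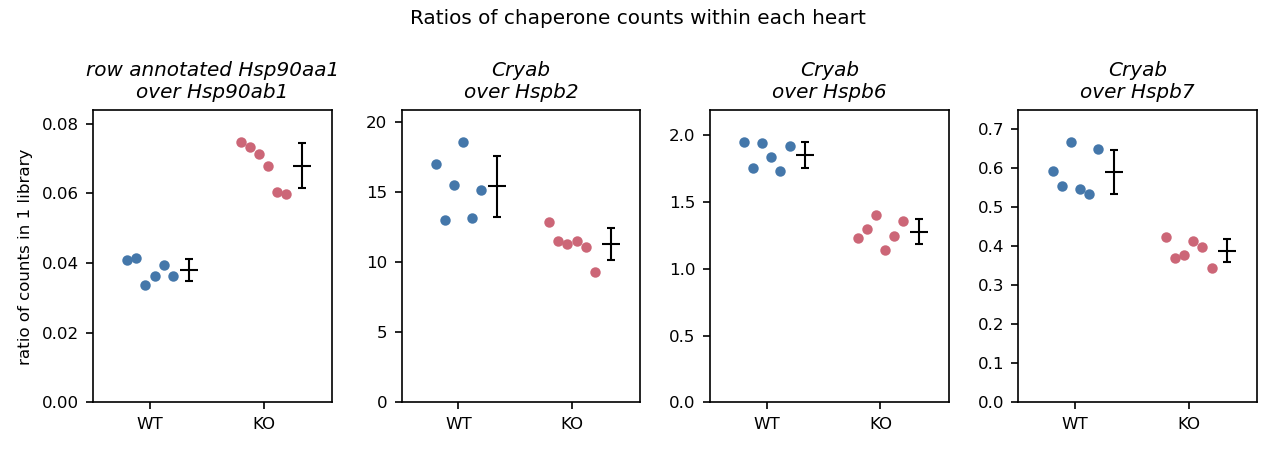
Ratios of read counts between pairs of chaperone rows within each heart, on linear axes that start at 0. Points are hearts in replicate order (blue WT, red KO, 6 each), and the bars beside them show the mean and SD. The groups do not overlap in any of the 4 panels: the HSP90 ratio is higher in KO hearts, and the ratios of Cryab to Hspb2, Hspb6 and Hspb7 are lower.

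Around HSP90, 11 of the 17 listed genes tested were lower in KO hearts and 3 were higher, and the median of the 17 was -0.26 on the log2 scale. Fkbp4 (FKBP52), an immunophilin that works with HSP90 on steroid receptors, fell by 54.2% (log2 fold change -1.13, standard error 0.061, adjusted p = 4.1e-10). Unc45b, the myosin chaperone of muscle, was at a mean of 209 CPM in WT hearts and 148 CPM in KO hearts (log2 fold change -0.49, adjusted p = 6.76e-07). Fkbp5 (FKBP51), the counterpart of Fkbp4 on steroid receptors and a gene that glucocorticoids induce, was the member of this list that rose most, with a log2 fold change of 1.28 (adjusted p = 0.00017). Fkbp5 was named after its value was seen.

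For the chaperonin TRiC and prefoldin, which fold actin and tubulin, 13 genes were tested, of which 5 were lower and 3 higher. Cct4, a subunit of TRiC, had a log2 fold change of -0.37 (adjusted p = 1.27e-05), and Pfdn6, a subunit of prefoldin, one of -0.35 (adjusted p = 1.82e-05). Over all 68 chaperone genes tested outside the group, 20 were higher and 23 lower in KO hearts, and their median was -0.039 on the log2 scale. This is 63.2% of the 68 genes, beside the 51.1% of all rows that passed. The shares were not matched for level of expression, and the difference between them was not tested.

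**Figure D5:**
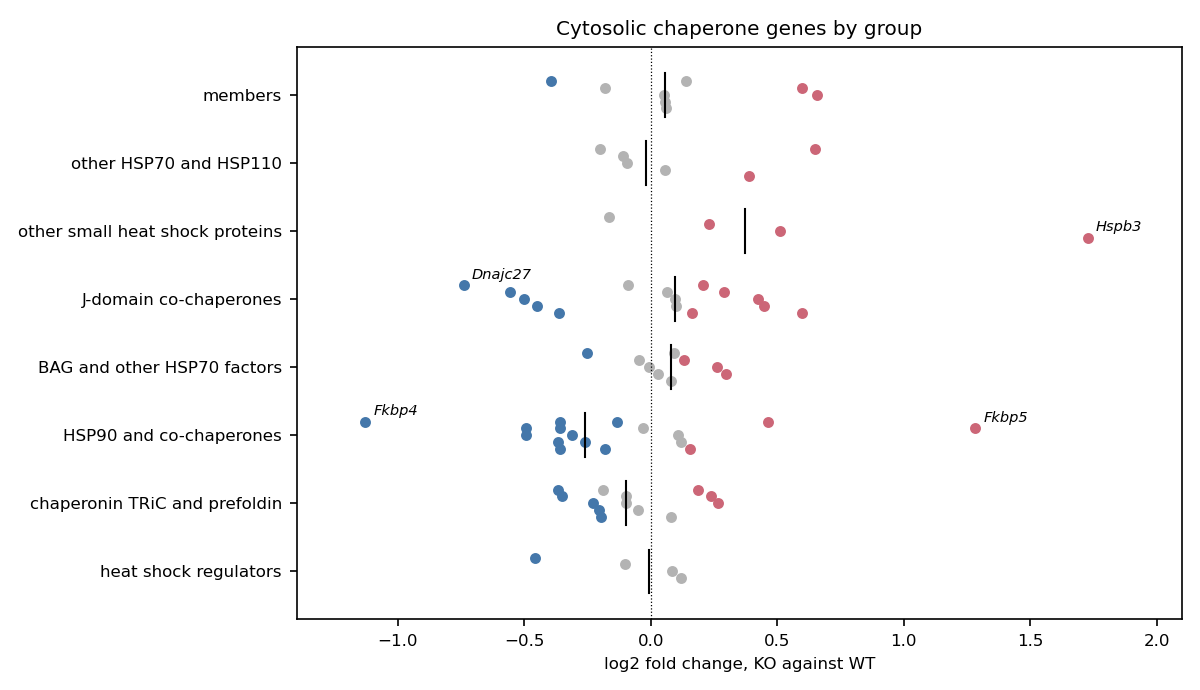
Log2 fold change between KO and WT hearts of each tested chaperone gene (1 point a gene), by group, with a black line at the median of the group. Red and blue mark genes that passed an adjusted p of 0.05 as higher or lower in KO hearts, grey the rest, and genes beyond 0.7 in either direction are named. The HSP90 group lies mostly below 0, and the small heat shock group mostly above it.

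The regulators of the response were examined as RNA only. Hsf1, the main factor of the heat shock response, was at 28.7 to 33.0 CPM in WT hearts and 21.0 to 25.5 CPM in KO hearts without overlap (log2 fold change -0.46, standard error 0.060, adjusted p = 7.2e-06). Hsf2 and Hsf4, its relatives, had log2 fold changes of -0.10 (95% interval -0.27 to 0.07, adjusted p = 0.311) and 0.12 (95% interval -0.18 to 0.42, adjusted p = 0.518). Hsbp1, which binds HSF1, did not pass the test either (log2 fold change 0.08, 95% interval -0.01 to 0.18, adjusted p = 0.132). The activity of HSF1 is set by its release from chaperones and its modification, which RNA levels do not report.

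Set against the sequences, the genes with the pair of GAA units before a start site included Hspb6, which was higher. They also included Hspb1 and Hspa1b, which did not pass the test, and Hsph1, which was lower but passed in only 15 of 24 other settings. Bag3, with a pair after its start, and Dnajb1, without a pair, did not pass the test. Hspb7, with the highest level of these genes in KO hearts, was higher without an exact pair in its window. Only 7 genes had both a promoter window and a row, and this is a description.

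The 12 hearts also varied within each genotype. The standard deviation within groups on the log2 scale was 0.095 for Bag3, 0.18 for Hspb6, 0.20 for Hspb7 and 0.28 for Hsph1, beside a median of 0.19 over all rows. After the mean of its genotype was taken from each value, Hspb6 and Cryab varied together most (Pearson r = 0.85 over 12 hearts), followed by Hspb1 and Bag3 (r = 0.83) and Hspb7 and Cryab (r = 0.78). Hspb1 and Hsph1 varied in opposite directions (r = -0.67). Of all 12 hearts, KO replicate 6 had the highest Hspb1 (73.4 CPM) and Bag3 (238 CPM) and the lowest Hsph1 (20.1 CPM). The correlations were not computed without that heart. These values share libraries and their scaling, and are given as a description.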

How the data were processed

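Ventricular wall RNA of 6 WT and 6 KO mice was analysed, 1 library for each mouse, with groups taken from the sample titles. The authors purified poly-A mRNA, prepared TruSeq libraries and deposited raw read counts per gene made with HTSeq, and the submitters' processing notes name HISAT2 2.0.5 and mm10. The strand setting is not given in the sources used here. The row identifiers are those of the C57BL/6NJ assembly, so coordinates of rows are on that assembly, and sequences from RefSeq are on GRCm38.p6. FPKM values per library were deposited by the authors as well and served here to compare levels between genes. The deposited group means and the authors' own fold changes and p-values (DESeq) were not used. Ages differ between sources (labels month 2, text 6 weeks, reporting summary 3 or 8 weeks).

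Counts were tested with edgeR 4.0.16 in R 4.3.3 (filterByExpr, TMM scaling, robust quasi-likelihood fit with genotype as the only term) over all 17155 rows that passed the filter, with Benjamini-Hochberg adjustment over those rows and a threshold of 0.05. All 8 genes with a row passed the filter. Of the rows, 23936 carry no gene name, among them 2590 unannotated loci, and these were kept in the fit. Ratios of counts within a library were compared by a two-sided exact permutation test over hearts. Replicate numbers were checked as pairs, and same-numbered hearts did not deviate together (r -0.16 to 0.024). Replicates of a group differed by more than counting error in each of 30 pairs (chi-square over its degrees of freedom 7.04 to 49.1). Alternatives were DESeq2 1.42.0, limma-voom (limma 3.58.1), other scalings and filters, the replicate block and leaving out each library. The procedure was run on simulated counts, where it first missed the limit set for the changes recovered, and the limit was then reset by the size of the change.

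The 10 genes, the wider chaperone lists and the marker lists were chosen with earlier results of these data known. Genes named outside the group were the partners of the ratios, the 2 with the smallest p in each wider list, Hsf2 and Hsf4, and the 3 rows most like each gene (1 of those for Hspb7 is not reported here), and others are said to be named after their values were seen. The planned sum of Hspa1a and Hspa1b and the planned ratio to Hspa8 were not computed, because Hspa1a and Hspa8 had no row under their names.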

Additional observations from a re-analysis of the deposited data

Results flagged for a closer look

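In each group of 6 hearts, the highest or lowest value was compared with the rest by its gap over the range of the group (Dixon's limit 0.625). Over 60 groups examined, 9 values stood apart, beside 3 that chance would give at 1 in 20 groups, and the groups share the same 12 hearts. KO replicate 6 accounted for 3 of them: Hspb1 at 73.4 CPM (other KO hearts 50.9 to 55.7), Bag3 at 238 CPM (others 201 to 213) and Hspb2 at 101 CPM (others 64.0 to 75.8). This heart also had the highest Hspb7 level of all 12 and the lowest Hsph1 level. Its summed level was 2357 CPM for fibroblast markers, the lowest among KO hearts (replicate 3 was next at 2458 CPM), and its total count of 28466463 was within the range of the others. Without it the log2 fold change was -0.03 for Hspb1, 0.02 for Bag3, 0.41 for Hspb2, 0.58 for Hspb7 and -0.31 for Hsph1, with each on the same side of the threshold as with it.

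WT replicate 4 stood apart for Bag3 at 233 CPM (other WT hearts 192 to 207) and for Dnajc5 at 99.1 CPM (others 89.1 to 92.3). The remaining values were Sdhaf4 at 2.73 CPM in KO replicate 1, Hsf1 at 25.5 CPM in KO replicate 4 (others 21.0 to 22.1), Unc45b at 234 CPM in WT replicate 3 (others 200.4 to 206.1) and the row annotated Hsp90aa1 at 56.8 CPM in WT replicate 5 (others 51.3 to 52.7).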

How the results depend on the processing

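Over 24 alternatives, Hspb7 and Hspb6 stayed higher in KO hearts in all 24 (log2 fold changes 0.58 to 0.72 and 0.54 to 0.67), and Hspa1b, Hspb1, Bag3 and Cryab passed the test in 0 of 24. Hsph1 passed in 15 of 24, so the number of these genes lower in KO hearts was 0 without the filter on low counts (Hsph1 adjusted p = 0.0794) and 0 with KO replicates 3 and 6 both left out (adjusted p = 0.092). Those hearts were left out together, after the data were seen, because they had the lowest fibroblast marker sums among KO hearts. With 1 library left out at a time the number was 0 to 1, and without WT replicate 1 it was Dnajb1 (adjusted p = 0.0417), not Hsph1, that passed. With 1 library left out, the number higher among the wider chaperone genes was 16 to 20, beside 20, and 16 came without KO replicate 6 and without WT replicate 2. No called value changed its sign in these alternatives. With the replicate block, 2 of the genes were higher and 1 lower, as without it, and Hsph1 had an adjusted p of 0.0112. 1 of 12 libraries lay closest to its own number, so the numbers were not used as pairs. In paired form the ratios of Cryab to Hspb2 and of the HSP90 pair were at the smallest p that 6 pairs allow (exact sign-flip p = 0.0312). For the HSP90 pair this too follows from the separation of both rows and is not used as support. The sum of Hspa1a and Hspa1b and the ratio to Hspa8 were not run. Of the 8 genes with a row, Hspa1b had the fewest reads, at 6.34 to 9.93 CPM, and so the largest counting error.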

Other observations

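For each gene, the annotated rows whose level followed it most closely were found over the 12 hearts, after the mean of its genotype had been taken from each value. Of 10043 rows searched, those with the highest Pearson correlation included Fdx1l and Tmem248 for Hspb7 (r = 0.93 and 0.92), and were Uck2, Klhl18 and Abhd6 for Hspb6 (0.94, 0.92 and 0.91). For Cryab they were Preb, Ifrd2 and Insig2 (0.92, 0.91 and 0.90). Ube2m, Usp20 and Lrp10 followed Hspb1 (0.95, 0.91 and 0.91), and Ino80c, Lrp10 and Creb3 followed Bag3 (0.92, 0.92 and 0.89), so Lrp10 was shared by Hspb1 and Bag3, the genes for which KO replicate 6 stood apart. For Hsph1 the rows were Srpx2, Ints7 and Ltbp2 (0.95, 0.94 and 0.91), for Dnajb1 Klhl11, Dusp12 and Sqrdl (0.86, 0.85 and 0.85), and for Hspa1b Sptssa, Arpc3 and Ftsj3 (0.86, 0.84 and 0.83). Each is the highest of many rows over few hearts that share libraries and scaling, and is given as a value only.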
